A study of Mus musculus with 157 samples.

Results

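Double-strand break repair genes encode the proteins that detect a broken chromosome, mark the chromatin around it and rejoin the ends. The list held 39 genes chosen by name, and a row of the count table with that gene name was found for 38 of them out of 19600 genes. Lig4, the ligase of classical end joining, had no row under that name and was not analysed here. The mRNAs were followed on ribosomes of splenic B cells from C57BL/6Babr mice, measured by 3′ end sequencing of single fractions of sucrose gradients. All 3 groups were cultured with the mitogen lipopolysaccharide (LPS) at 10 µg/ml. The LPS group had 48 h of it and no genotoxic drug. The LPS+ET group had 48 h of LPS and etoposide at 20 µM for 4 h. The LPS+ET+KU group had 47 h of LPS, with KU55933, an inhibitor of the kinase ATM, at 10 µM from 1 h ahead of the same etoposide treatment. Every culture received cycloheximide at 100 µg/ml for 3 min before lysis, which holds ribosomes on mRNA. Each group had 4 gradients of 13 fractions. Monosomes were fractions 4 to 7, light polysomes 8 to 10 and heavy polysomes 11 to 16. The column names carry a tag, LUL15 to LUL18, and every tag covers a gradient from all 3 groups. The tag is called a pool here and gradients are named by it, but the labels do not say what it stands for. For LUL15 and LUL17 it also follows the replicate number of the sample titles. The authors describe 4 biological replicates, but the labels do not say whether gradients came from separate mice or cultures. The p-values therefore measure the spread between gradients.

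Etoposide stops topoisomerase II from resealing the DNA it has cut, which breaks both strands. The MRN complex senses such ends and recruits ATM, which phosphorylates the histone variant H2AX, and the adaptor MDC1 and the ubiquitin ligases RNF8 and RNF168 then extend the signal over the surrounding chromatin. Repair follows either by joining of the ends or, after resection, by recombination with an intact copy. B cells also make such breaks on purpose when they switch antibody class.

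Library totals lay between 14724 and 4170688 counts (median 811932), and gradient totals between 6404957 and 21449781. The members took 5355 to 20265 counts per gradient, 0.0732 to 0.10% of all counts. Monosome fractions held 28.4 to 34% of a gradient's counts in LPS+ET+KU and 10.8 to 29% in the other groups. The gradient LPS+ET of pool LUL16 stood apart, with 30.4% of its counts in heavy polysomes against 52.3 to 68.2% in the other LPS and LPS+ET gradients. Cdkn1a, the cell cycle inhibitor induced by p53, lay at 26.9 ± 4.29, 722 ± 167 and 662 ± 184 CPM (counts scaled to the total of the gradient, mean ± SD, n = 4) in LPS, LPS+ET and LPS+ET+KU. Mdm2, which encodes the ubiquitin ligase that acts on p53, lay at 73.7 ± 6.04, 421 ± 77.5 and 216 ± 56.4 CPM. Summed over 9 B cell markers the level was 39890 to 140223 CPM per gradient, most of it Igkc. Of these markers, Cd22 was lower after etoposide (log2 fold change −2.12 ± 0.40 SE, adjusted p = 0.0017) and with both drugs (−1.82 ± 0.39 SE, adjusted p = 0.0053). Cd79a lay at 87.2, 57.2 and 63.9 CPM in LPS, LPS+ET and LPS+ET+KU (adjusted p = 0.014 and 0.048 against LPS), and their part in the results was not tested. For 9 myeloid markers the sum spanned 31.9 to 87.2 CPM in LPS, 49.2 to 164 CPM with etoposide and 33.2 to 126 CPM with both drugs. The 7 T cell markers summed to 83.8 to 378 CPM, nearly all of it Lck, and NK and erythroid markers to at most 4.57 and 1.40 CPM. In these bulk samples fewer cells of a type and less RNA per cell cannot be told apart.

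The assay counts tags at poly(A) sites, so a value rests on the end of the mRNA and does not grow with its length. The counted site that led each gene lay within 100 bases of an annotated end of its own transcripts for 32 of 38 members. The sequences before that site are shown for the 7 members on which the results turn, in GRCm38 as annotated in GENCODE release M21, 5′ to 3′ on the strand of the gene. Capitals mark the poly(A) signal, AATAAA or ATTAAA, searched on the sense strand within 40 bases of the site.
H2afx, chr9:44336043-44336072, plus strand: ATTAAAggatcgtttggttttgttttttta
Rad52, chr6:119922793-119922822, plus strand: tgttacctacATTAAAttatgtgtgacctc
Rnf168, chr16:32300876-32300905, plus strand: tcctgtgaacatAATAAActgtcctaatgc
Parp1, chr1:180601224-180601253, plus strand: agttctcaATTAAAatgcaaatggatatct
Mre11a, chr9:14833872-14833901, plus strand: ccatatcgagaacattaacttcctgacaga
Bard1, chr1:71027534-71027563, minus strand: ataaatcATTAAAactatttgtgcttgtat
Blm, chr7:80455092-80455121, minus strand: ttaAATAAAcattttctttggtgctactgc

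Each of these windows lies in an untranslated or noncoding exon and 6 of the 7 held a signal, which began 18 to 34 bases before the counted site. Of 58797 protein-coding transcripts, 48.7% held either signal in their last 40 bases. The Mre11a site lay 745 bases from an annotated end and the window before it held neither signal. H2afx is a histone gene, and histone mRNAs made in S phase usually end at a stem-loop without a poly(A) tail. H2AX mRNA is known in both forms, and a stem-loop stood 821 bases before the counted poly(A) site, in which capitals mark the paired bases.
H2afx stem-loop, chr9:44335240-44335255, plus strand: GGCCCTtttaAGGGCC

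The pattern of the histone stem-loop, searched on the sense strand, occurred in transcripts of 56 of 21901 protein-coding genes (0.256%) and in 1 of the 38 members. Counts of H2afx therefore come from the polyadenylated form, and mRNA that ends at the stem-loop was not measured.

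For a few members the counted site did not belong plainly to the gene. The row of Rnf8 took 73.3% of its counts from position 29703358 of chromosome 17, which is the annotated end of the neighbouring gene Cmtr1, and 6.91% from a site 414 bases from another annotated end of Cmtr1. Only 19.8% came from the end of Rnf8 itself, so its values are uncertain throughout. Dclre1c took 79.4% of its counts from an intronic site. The Brcc3 site lay outside the gene, 1699 bases past an annotated end, and the Xrcc4 site in an intron, 13 bases from a transcript end. The Brip1 site lay in an exon 3040 bases from the nearest annotated end.

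Ribosome-associated mRNA was the sum of a gene's counts over fractions 4 to 16. In LPS the median member stood at 12.4 CPM, against 13.3 CPM for all 12755 genes tested. The members ranged from 0.923 CPM for Slx4, a scaffold for nucleases that cut recombination junctions, to 137 CPM for H2afx. Most lay in the middle, with 28 of 38 from 5 to 50 CPM, 6 below 5 and 3 above 100. In the order of levels, 34 of 37 neighbouring pairs overlapped in their range over gradients. Those that did not were Rnf8 above Rnf168, Rnf168 above Brcc3 and Palb2 above Slx4.

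Among the break sensors in LPS, Mre11a, the nuclease of the MRN complex, lay at 24.6 ± 5.24 CPM and Rad50, its ATPase, at 17.8 ± 1.78 CPM. Nbn, the subunit that binds ATM, lay at 3.78 ± 0.637 CPM. The chromatin signalling group held several abundant members. H2afx lay at 137 ± 55.6 CPM and the uncertain Rnf8 row at 136 ± 18.5 CPM. Rnf168 lay at 59.9 ± 8.59 CPM, below those and above every other member but Parp1. Brcc3, a deubiquitinase, lay at 36.2 ± 6.66 CPM and Trp53bp1, whose product 53BP1 shields ends from resection, at 29.4 ± 5.87 CPM. Mdc1 stood at 12.8 ± 3.91 CPM and Uimc1, which brings BRCA1 to ubiquitylated chromatin, at 12.0 ± 0.763 CPM.

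Of the resection enzymes the helicases Wrn and Blm lay at 35.8 ± 4.60 and 24.2 ± 1.58 CPM. Rbbp8, whose product CtIP starts resection, and the exonuclease Exo1 were lower at 7.26 ± 1.64 and 6.52 ± 2.67 CPM. In recombination, Brca1 and its partner Bard1 stood at 29 ± 7.87 and 27.3 ± 4.83 CPM. Brca2, a mediator of recombination, lay at 14.9 ± 3.64 CPM. Rad52, which anneals single strands, lay at 11.8 ± 0.83 CPM. Palb2, the bridge between BRCA1 and BRCA2, lay at 3.45 ± 0.965 CPM. The helicase gene Brip1, the recombination cofactors Rad51c, Xrcc2 and Xrcc3 and the translocases Rad54l and Rad54b had means of 4.38 to 9.12 CPM. The junction nuclease subunits Eme1 and Mus81 stood at 24.3 ± 6.24 and 9.35 ± 1.35 CPM, and the resolvase Gen1 at 13.0 ± 2.59 CPM.

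In classical end joining, Xrcc6 (Ku70) stood at 22.5 ± 4.15 CPM and Xrcc5 (Ku80) at 9.02 ± 1.44 CPM. The nuclease gene Dclre1c (Artemis) and the ligation cofactors Nhej1 and Xrcc4 lay between 4.95 and 7.53 CPM on average. In alternative end joining, Parp1, the sensor of strand breaks, reached 136 ± 26 CPM. The ligase Lig3 lay at 26.7 ± 4.96 CPM, its scaffold Xrcc1 at 16.8 ± 1.42 CPM and the polymerase Polq at 7.67 ± 2.47 CPM.

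Few of these mRNAs were called as changed on ribosomes after etoposide. At an adjusted p under 0.01 (edgeR), 2 of 38 members were called in LPS+ET against LPS, 1 lower (H2afx) and 1 higher (Rad52), against 12.7% of all genes tested. In the 4 gradients of LPS, H2afx stood at 103, 79.2, 201 and 164 CPM (pools LUL15 to LUL18 in that order). After etoposide it stood at 18.7, 21.1, 45.9 and 35.5 CPM. Every LPS+ET gradient lay below every LPS gradient, and pools LUL17 and LUL18 were the higher ones in both groups. The LPS mean was 4.51 times the LPS+ET mean of 30.3 ± 12.8 CPM. The log2 fold change was −2.27 ± 0.40 (SE, adjusted p = 0.0012) and it ran from −2.54 to −2.04 when each gradient was left out in turn.

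Rad52 moved the other way. It stood at 12.7, 11.9, 10.7 and 11.9 CPM in LPS and at 34.8, 40.9, 30.6 and 28.9 CPM in LPS+ET. The lowest LPS+ET gradient held more than the highest LPS gradient. The mean rose 2.86-fold to 33.8 ± 5.36 CPM, a log2 fold change of 1.40 ± 0.16 (SE, adjusted p = 4.0e-05).

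**Figure D1:**
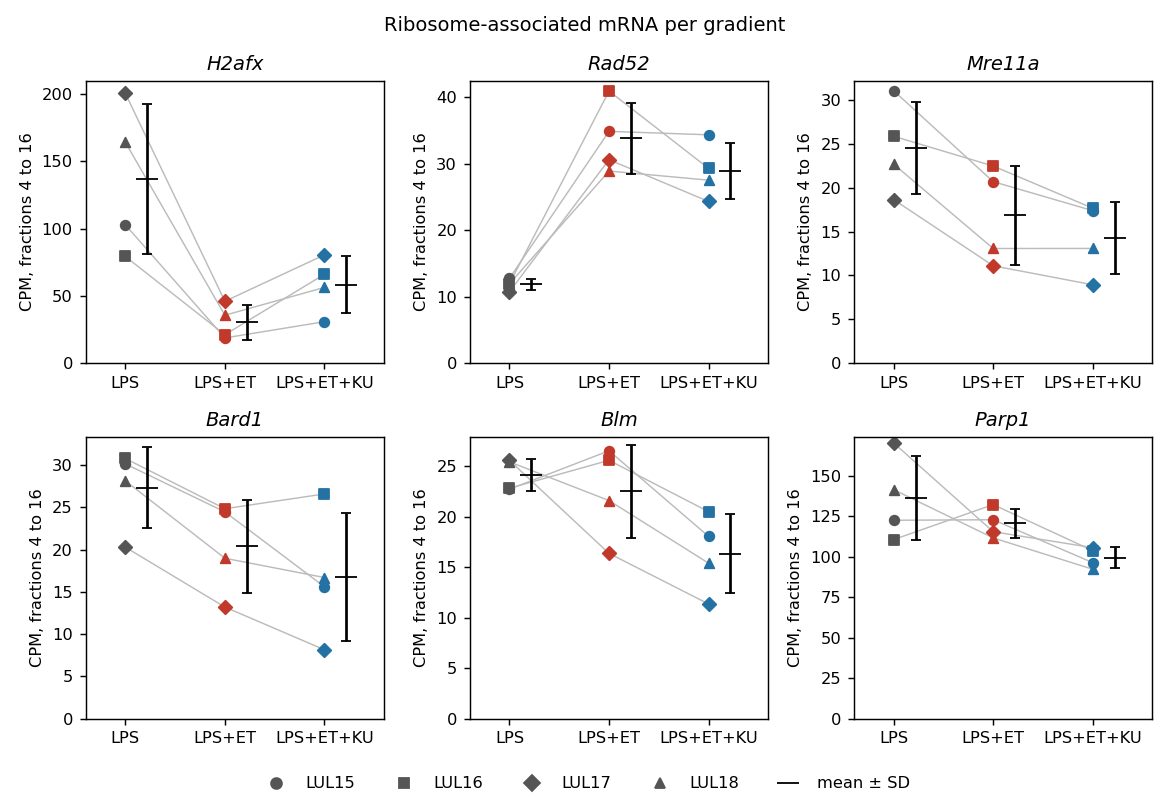
Ribosome-associated mRNA (CPM of fractions 4 to 16, vertical axis from 0) in each of 12 gradients by treatment, for the 6 members called in any treatment comparison with or without the pool as a term. Symbols mark pools, grey lines join gradients of a pool, and bars give mean ± SD of 4 gradients. H2afx falls from 137 to 30.3 CPM and stands at 58.3 CPM with KU55933, while Rad52 rises from 11.8 to 33.8 and 28.9 CPM.

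With the ATM inhibitor, 1 of 38 members was called in LPS+ET+KU against LPS (Rad52, higher), against 10.7% of all genes tested. Rad52 stood at 34.3, 29.3, 24.3 and 27.5 CPM in LPS+ET+KU, every gradient above those of LPS. Its log2 fold change was 1.16 ± 0.16 (SE, adjusted p = 2.7e-04). H2afx stood at 30.7, 66.0, 80.4 and 56.2 CPM in LPS+ET+KU. The highest of these, of pool LUL17, reached just above the lowest LPS gradient, and within each pool the LPS gradient was higher. Its log2 fold change against LPS was −1.32 ± 0.39 (SE, adjusted p = 0.027).

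Between LPS+ET+KU and LPS+ET, no member was called by edgeR, against 0.455% of all genes tested, and none by DESeq2, against 3.15%. At an unadjusted p under 0.05 there were 2 members, H2afx and Blm (log2 difference −0.46 ± 0.20 SE, adjusted p = 0.26). H2afx was higher with the inhibitor in 4 of 4 pools, 1.92 times the LPS+ET mean, with a log2 difference of 0.94 ± 0.39 (SE, adjusted p = 0.25). The interval of its values overlapped between those groups, from 30.7 to 80.4 CPM against 18.7 to 45.9 CPM. Rad52 had a log2 difference of −0.23 ± 0.15 (SE, adjusted p = 0.50) and was lower with the inhibitor in 4 of 4 pools.

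Gradients of a pool deviated together, so the same tests were run with the pool as a term (replicate block). Far more genes were then called, 26.7% in LPS+ET against LPS, 28.1% with both drugs against LPS and 6.36% between LPS+ET+KU and LPS+ET. Of the 38 members, 3, 6 and 1 were called. In LPS+ET against LPS the third was Mre11a. Against LPS, the 6 with both drugs were H2afx (log2 fold change −1.32 ± 0.19 SE, adjusted p = 1.4e-04), Mre11a, Bard1, Blm, Parp1 and Rad52. Between both drugs and etoposide alone it was H2afx (0.98 ± 0.20 SE, adjusted p = 0.0053). DESeq2 without the block called 5 members with both drugs against LPS, against 16.4% of genes, which were the same genes without Bard1.

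Mre11a stood at 31.1, 25.9, 18.7 and 22.7 CPM in LPS and at 20.7, 22.5, 11.1 and 13.1 CPM in LPS+ET. With both drugs it stood at 17.4, 17.7, 8.93 and 13.1 CPM. Within each pool the LPS gradient held the most, and LPS did not overlap LPS+ET+KU. With the replicate block the log2 fold changes were −0.69 ± 0.13 (SE, adjusted p = 9.3e-04) after etoposide and −0.92 ± 0.13 (SE, adjusted p = 1.1e-04) with the inhibitor as well. Without it the adjusted p was 0.080 and 0.023.

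Bard1 stood at 30.1, 30.8, 20.3 and 28.1 CPM in LPS, at 24.5, 24.8, 13.2 and 19 CPM in LPS+ET, and at 15.6, 26.6, 8.15 and 16.7 CPM in LPS+ET+KU. The ranges overlapped, while in every pool the LPS gradient was the highest. The blocked log2 fold change of LPS+ET+KU against LPS was −0.89 ± 0.16 (SE, adjusted p = 5.6e-04), and the unblocked one −0.82 ± 0.30 (SE, adjusted p = 0.067).

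Blm stood at 22.7, 22.8, 25.6 and 25.5 CPM in LPS, at 26.6, 25.6, 16.4 and 21.6 CPM in LPS+ET, and at 18.1, 20.5, 11.4 and 15.4 CPM in LPS+ET+KU. LPS did not overlap LPS+ET+KU, whereas LPS+ET spanned both. The blocked log2 fold change of LPS+ET+KU against LPS was −0.71 ± 0.16 (SE, adjusted p = 0.0025), and the adjusted p without the block was 0.024.

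Parp1 stood at 123, 111, 170 and 141 CPM in LPS, at 123, 132, 115 and 112 CPM in LPS+ET, and at 96.4, 103.8, 106 and 92.3 CPM in LPS+ET+KU. Every LPS+ET+KU gradient lay below all gradients of the other groups. The blocked log2 fold change against LPS was −0.56 ± 0.14 (SE, adjusted p = 0.0050). When each fraction was given the same weight it was −0.05 ± 0.15 (SE, adjusted p = 0.87), so its lower level was seen in sums that weight fractions by depth. With that weighting the log2 fold changes of Mre11a, Bard1 and Blm were −0.57, −0.50 and −0.42, with adjusted p of 0.20 or more.

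The other 32 members were called in no comparison of ribosome-associated mRNA, with or without the block. After the TMM normalization of edgeR, small negative log2 fold changes prevailed among all members. They lay below 0 for 33 of 38 in LPS+ET against LPS and for 31 of 38 in LPS+ET+KU against LPS. No such count is given over all genes, for which only the medians are set beside. In plain CPM, as used for the levels, fewer members had a mean below that of LPS in each comparison. These sums weight fractions by depth, and monosomes held a larger part of the counts in LPS+ET+KU than in LPS. The median log2 fold changes of the members were −0.23 and −0.20, beside 0.03 and 0.09 for all genes tested. By role in LPS+ET against LPS, the medians were −0.67 for the 3 sensors, −0.24 for 7 chromatin signalling genes and −0.28 for 4 resection genes. They were −0.12 for 11 recombination genes, −0.32 for 4 junction genes, −0.18 for 5 classical and −0.24 for 4 alternative end joining genes. Nbn and Slx4 spanned the rest, with log2 fold changes of −0.74 ± 0.34 and 0.49 ± 0.41 (SE), neither past the threshold. In some alternative setting 13 and 16 of 38 members changed sign, none of the 8 and 8 with a value of 0.5 or more in size.

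**Figure D2:**
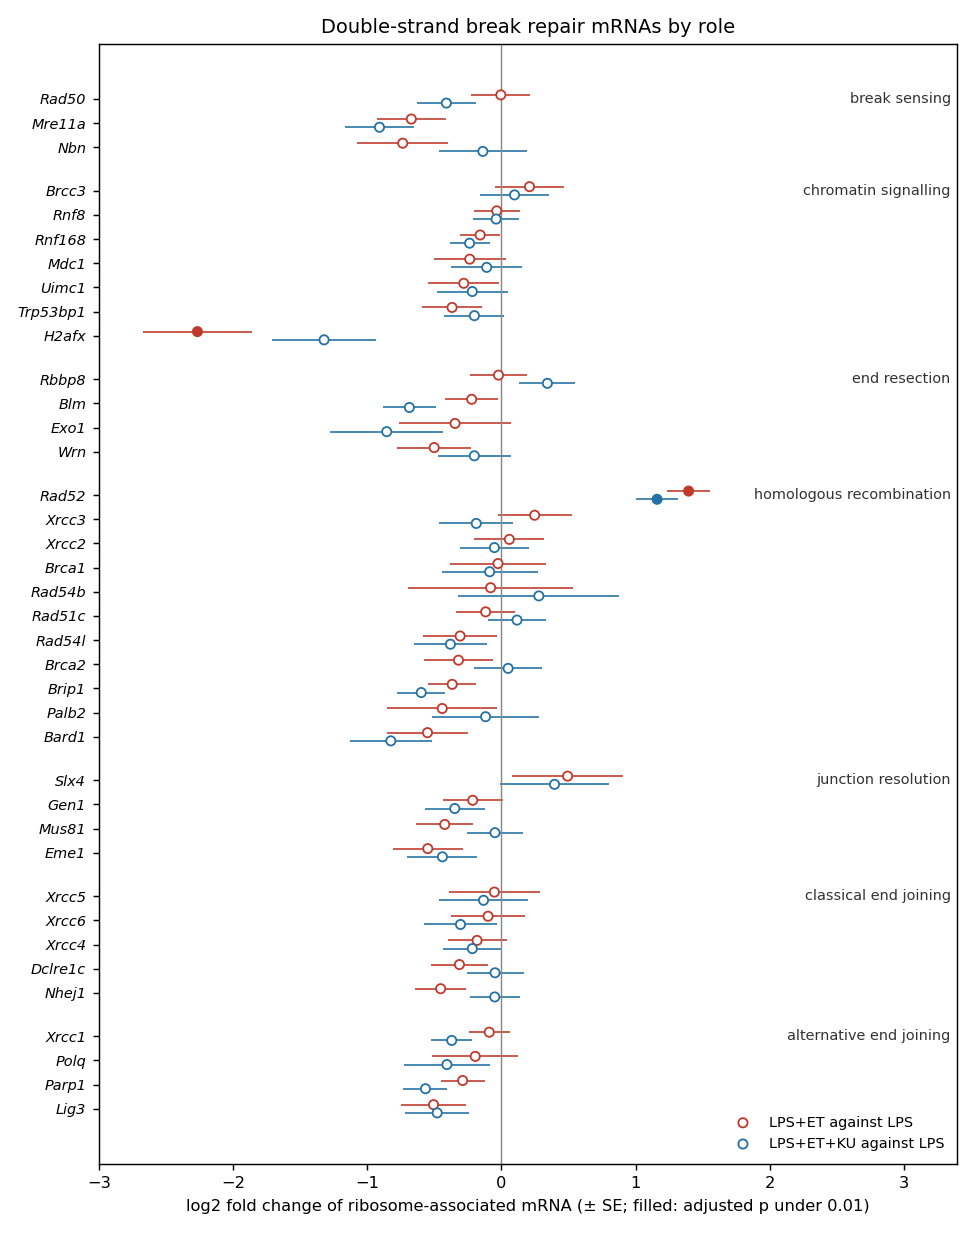
Log2 fold change of ribosome-associated mRNA (horizontal axis, ± SE) of the 38 members by role, in LPS+ET and LPS+ET+KU against LPS. Filled points passed an adjusted p of 0.01 without the pool as a term. H2afx at −2.27 and Rad52 at 1.40 and 1.16 are filled, and most open points lie between −1 and 0.

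Ranges over the 4 gradients did not overlap for 2 members in LPS+ET against LPS (H2afx and Rad52). They did not overlap for 6 in LPS+ET+KU against LPS (Mre11a, Blm, Brip1, Rad52, Parp1 and Xrcc1) and for 3 between the etoposide groups (Nhej1, Parp1 and Xrcc1). Of all genes tested, 26.4%, 26.3% and 8.26% did not overlap in these comparisons. Brip1, the BRCA1-binding helicase, had a mean of 9.12 CPM in LPS and 6.47 CPM in LPS+ET+KU (log2 fold change −0.60 ± 0.18 SE, adjusted p = 0.030). For Xrcc1 the difference from LPS was −0.37 ± 0.15 (SE, adjusted p = 0.096). For Nhej1 the difference from LPS+ET was 0.40 ± 0.19 (SE, adjusted p = 0.32).

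Separate tests of each gradient class placed these changes along the gradient. Comparing LPS+ET with LPS in monosomes called 4 of 31 members tested, 2 of them higher, against 9.52% of genes. In light polysomes 2 of 36 were called against 10.6%, and in heavy polysomes 2 of 38 against 9.69%. H2afx and Rad52 were called in all 3 classes. The log2 fold changes of H2afx were −2.74 ± 0.44 in monosomes, −2.75 ± 0.42 in light and −2.01 ± 0.44 in heavy polysomes (SE, adjusted p = 6.6e-04, 3.6e-04 and 0.0050). The heavy polysome call was lost without LPS of pool LUL17 or LUL18 or LPS+ET of pool LUL15, LUL16 or LUL18 (adjusted p of 0.013 to 0.018). Those of Rad52 were 1.23 ± 0.20, 1.22 ± 0.23 and 1.65 ± 0.22 (SE, adjusted p = 6.8e-04, 0.0021 and 1.3e-04).

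Rnf168 was called in monosomes alone. Its monosome level was 25.4, 21.4, 24.5 and 18.2 CPM in LPS and 53.3, 55.5, 50.1 and 51.3 CPM in LPS+ET. With both drugs it was 35.2, 38, 33.9 and 31.1 CPM, between the other groups and overlapping neither. The log2 fold change of LPS+ET against LPS was 1.30 ± 0.17 (SE, adjusted p = 1.3e-04) and stayed past the threshold with any gradient left out. The heavy polysome level was 81.6, 65.9, 80.7 and 59.1 CPM in LPS and 67.2, 36.4, 65.6 and 54.8 CPM in LPS+ET, with overlapping ranges. Over fractions 4 to 16 the sum differed little, at 59.9 ± 8.59, 58.2 ± 8.70 and 55.1 ± 6.82 CPM in LPS, LPS+ET and LPS+ET+KU.

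Parp1 was also called in monosomes, at 60.9, 46.3, 39.4 and 43.3 CPM in LPS and 18.7, 26.4, 29.3 and 27.6 CPM in LPS+ET. The ranges did not overlap, and the log2 fold change was −0.82 ± 0.19 (SE, adjusted p = 0.0091, and 0.0010 with the replicate block). The block, which called 24.6% of genes, also called the uncertain Rnf8 row (−0.44 ± 0.13 SE, adjusted p = 0.00996). This call was lost in 9 of 12 fits with a gradient left out (adjusted p up to 0.022). They were those without any LPS gradient, without LPS+ET of pool LUL15, LUL16 or LUL18, and without LPS+ET+KU of pool LUL17 or LUL18.

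With both drugs against LPS, Rad52 alone was called in monosomes (1.02 ± 0.20 SE, adjusted p = 0.0035, 1 of 31 members against 5.96% of genes) and in heavy polysomes (1.16 ± 0.22 SE, adjusted p = 0.0025, 1 of 38 against 7.95%). The monosome call was lost without LPS of pool LUL15 or LUL16 or LPS+ET+KU of pool LUL15 or LUL18 (adjusted p of 0.012 to 0.021). The heavy polysome call was lost without LPS of pool LUL15, LUL17 or LUL18 (adjusted p of 0.011 to 0.013). Without LPS+ET+KU of pool LUL17, H2afx was also called in monosomes (−1.92, adjusted p = 0.0087), and without LPS+ET of pool LUL16, Mre11a in heavy polysomes (−1.05, adjusted p = 0.0094). In light polysomes edgeR called 0 of 36 against 7.13%, with 6 at an unadjusted p under 0.05, and DESeq2 called 1 (H2afx, −1.35) against 10.5% of genes. With the replicate block 5, 1 and 4 members were called in monosomes, light and heavy polysomes, against 23.2%, 24.1% and 21.4% of genes, among them H2afx each time (−1.59, −1.38 and −1.03). Rnf168 was then called in monosomes (0.62 ± 0.15 SE, adjusted p = 0.0031).

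Between LPS+ET+KU and LPS+ET, edgeR called 0 members in monosomes (0.213% of genes), light polysomes (0.292%) and heavy polysomes (0.572%), with 3 at an unadjusted p under 0.05 in each class. DESeq2 called 1, 0 and 0 (Rnf168 in monosomes, −0.68), against 1.08%, 1.79% and 2.26% of genes. The replicate block, under which 5.62%, 5.35% and 3.27% of genes were called, called Rnf168 (−0.68 ± 0.14 SE, adjusted p = 0.0032) and H2afx (1.11 ± 0.24 SE, adjusted p = 0.0046) in monosomes and H2afx in light polysomes (1.42 ± 0.19 SE, adjusted p = 1.5e-04).

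**Figure D3:**
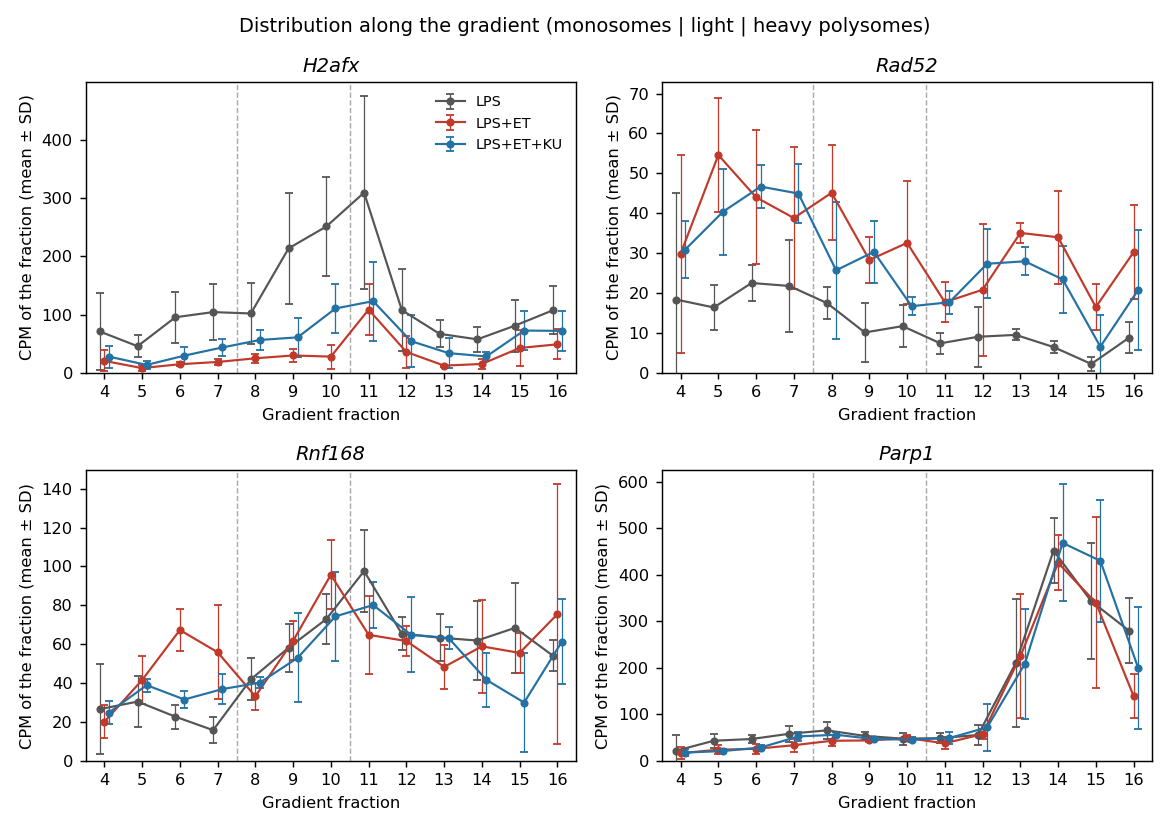
Level of 4 members in each gradient fraction (CPM of that fraction, mean ± SD of 4 gradients, error bars cut at 0) by treatment, with dashed lines between monosomes, light and heavy polysomes. In LPS, H2afx peaks at 309 CPM in fraction 11 and Parp1 at 452 CPM in fraction 14, Rad52 is highest in monosomes, and Rnf168 in fraction 6 stands at 22.7 CPM in LPS against 67.3 CPM in LPS+ET.

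The same mRNAs were followed through single fractions. H2afx, a short mRNA, was highest in fraction 11, at 309, 108 and 123 CPM in LPS, LPS+ET and LPS+ET+KU. Parp1 was low up to fraction 12 and highest in fraction 14 at 452, 426 and 469 CPM. For Rnf168 the gap between groups lay in fractions 6 and 7, at 22.7 and 15.8 CPM in LPS, 67.3 and 55.9 CPM in LPS+ET, and 31.5 and 36.9 CPM in LPS+ET+KU. A model over libraries of single fractions, which set treatment and its interaction with fraction against fraction alone, called 3 of 33 members in LPS+ET against LPS (H2afx, Rad52 and Rnf168), against 31% of genes. For both drugs against LPS it called 4 of 34 (H2afx, Rad52, Mre11a and Brca2), against 32.7%. For both drugs against etoposide alone it called 1 of 33 (H2afx, adjusted p = 0.0028), against 8.01%, and this call was lost without LPS+ET of pool LUL15, LUL16 or LUL18 or LPS+ET+KU of pool LUL16. This model tests level and profile together and takes fractions of a gradient as independent. The interaction alone called only Rnf168 in LPS+ET against LPS (adjusted p = 5.3e-04, 1.37% of genes), and by edgeR 0 members in both comparisons with LPS+ET+KU (3.29% and 1.05% of genes), where 5 and 3 had an unadjusted p under 0.05. With a term per gradient it called H2afx and Rnf168 in LPS+ET against LPS (5.72% of genes), Rnf168 with both drugs against LPS (11.0%) and 0 members between LPS+ET+KU and LPS+ET (3.63%). The 4 became 2 without LPS of pool LUL15 or LUL16 or LPS+ET+KU of pool LUL15 or LUL18, and 7 without LPS+ET+KU of pool LUL16. The 3 became 6 without LPS of pool LUL17 or LPS+ET of pool LUL16.

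Heavy polysomes were then set against monosomes of the same gradient. In LPS 15 of 37 members were called, 12 higher in heavy polysomes and 3 lower, against 46.1% of genes. The median log2 ratio was 0.57 for members and 0.08 for all genes. Those most enriched in heavy polysomes were Rad50 (1.85 ± 0.31 SE), Brca2 (1.69 ± 0.33 SE), Parp1 (1.499 ± 0.20 SE) and Xrcc5 (1.29 ± 0.31 SE). Brca1, Rnf168, Wrn, Blm, Eme1, Xrcc6, Trp53bp1 and Lig3 followed at 0.77 to 1.16. Rad52 (−1.78 ± 0.21 SE), Dclre1c (−1.02 ± 0.26 SE) and Uimc1 (−0.85 ± 0.23 SE) leaned to monosomes. Rad50, Brca2, Parp1, Xrcc5, Brca1, Rnf168, Wrn and Rad52 were called in 12 of 12 fits with a gradient left out.

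The scale of these ratios depends on how fractions are weighted. With each fraction given the same weight the median of all genes moved from 0.08 to 0.63, and 4247 genes were called higher and 966 lower in place of 2880 and 2410. Members then stood at a median of 1.33, with 18 called higher and 1 lower, and in LPS+ET and LPS+ET+KU 17 and 18 were called higher and 0 and 1 lower. Values of Uimc1, Dclre1c and Lig3 changed sign, to 0.02, 0.26 and −0.09, all below the median of all genes.

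After etoposide 17 of 37 members were called, 13 higher in heavy polysomes and 4 lower, against 46.1% of genes, with a member median of 0.67 beside 0.16. With both drugs 17 were called, 13 higher and 4 lower, against 50.7%, with medians of 0.57 and 0.14. Parp1 led in both, at 2.43 ± 0.22 and 1.86 ± 0.20 (SE). Rad52 was lowest in both, at −1.18 ± 0.19 and −1.54 ± 0.18 (SE). Called lower beside Rad52 were Nhej1, Rad51c and Uimc1 in LPS+ET and Nhej1, Rad51c and Rad54b in LPS+ET+KU. The count fell to 10 and 9 of the members in LPS+ET without its gradient of pool LUL16 or LUL18. With both drugs it fell to 10 without the gradient of pool LUL16.

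**Figure D4:**
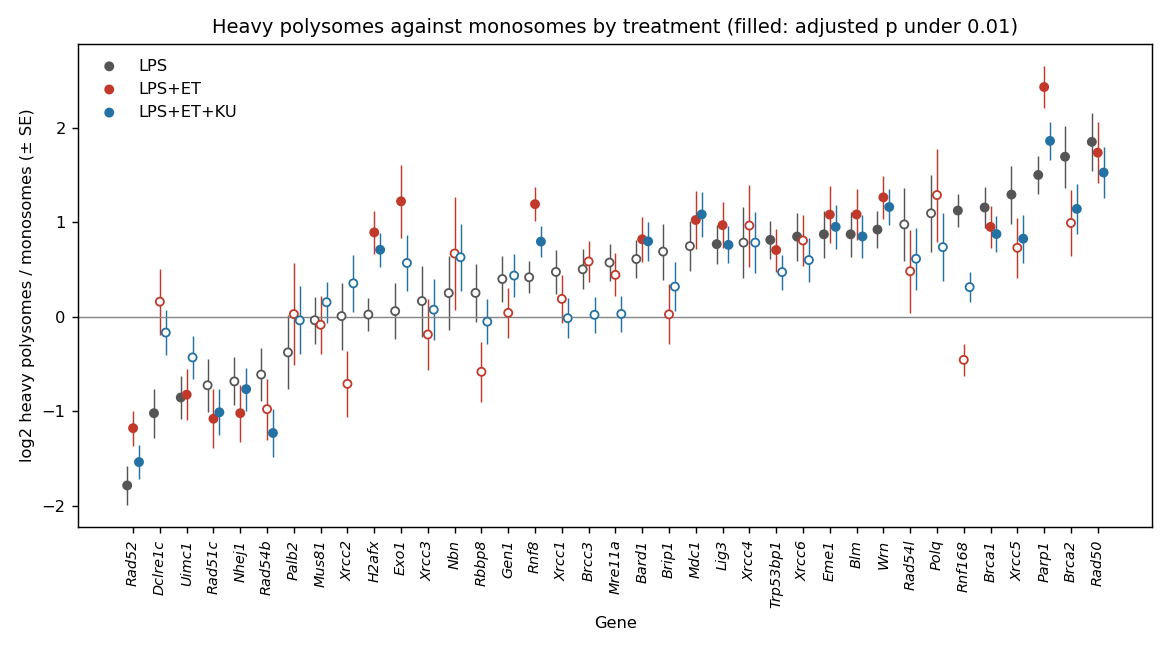
Log2 ratio of heavy polysomes to monosomes (vertical axis, ± SE, gradient as a block) of the 37 members tested, in order of their value in LPS. Filled points passed an adjusted p of 0.01. Rad52 lies lowest at −1.78 in LPS, Rad50 highest at 1.85, and Rnf168 stands at 1.12 in LPS, at −0.46 after etoposide (0.36 with equal weight per fraction) and at 0.31 with both drugs.

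A change of that ratio between treatments was called for 1 of 37 members in LPS+ET against LPS, against 2.51% of genes. It was Rnf168, whose log2 ratio was 1.12 ± 0.17 in LPS, −0.46 ± 0.17 after etoposide and 0.31 ± 0.16 with both drugs (SE). The change from LPS to LPS+ET was −1.58 ± 0.24 (SE, adjusted p = 2.3e-04), and −1.68 to −1.56 with each gradient left out, all 12 past the threshold. With equal weight per fraction it was −1.20 with an adjusted p of 0.022, and the ratio in LPS+ET turned to 0.36. Of the counts at listed sites of Rnf168, 93.6% came from the site shown above, at the end of an annotated transcript, and 6.39% from another that lay past it, outside the annotated gene. Between LPS+ET and LPS+ET+KU edgeR called 0 of 37 members, against 0.0262% of genes, with 2 at an unadjusted p under 0.05. The value for Rnf168 was 0.77 ± 0.23 (SE, adjusted p = 0.17). DESeq2 was not run on these ratios.

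The share of each mRNA in heavy polysomes was taken after scaling every fraction to CPM, so that an even spread over 13 fractions gives 46.2%. Of the members, 25 averaged at least 100 counts per gradient and 13 did not. The median share of the 25 in LPS was 67.7%, beside 55.2% (quartiles 41.9 and 66.1%) over 8000 genes with that many counts, and 20 of 25 lay above the gene median. Rad50 (83.7 ± 2.59%), Brca2 (80.9 ± 2.62%) and Parp1 (80.6 ± 3.48%) had the largest shares (SD, n = 4). Rad52 (27.5 ± 8.52%), H2afx (43.7 ± 6.403%), Uimc1 (47.3 ± 5.43%), Mus81 (49.6 ± 5.38%) and Lig3 (50.7 ± 19.4%) had the smallest. The place of Lig3 rests on the scaling, since its shares were 48.9, 78.6, 35.7 and 39.6% and its share of the deposited counts was 74.8 ± 2.6%. By deposited counts Rad52, H2afx, Uimc1 and Mus81 were still the lowest, at 40.5, 53.6, 57.1 and 61% on average.

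These shares rose with the length of the coding sequence. The median coding length was 2247 bases for these members and 1323 for all genes with enough counts. The 10 members over 3000 coding bases had a median share of 76.5% and the 9 under 2000 bases one of 60.7%. Across the 25 members the Spearman correlation of share and coding length was 0.745 (Pearson 0.683 with log2 length), and 0.757 without Rnf8. Across 7601 genes it was 0.536 (Pearson 0.566). The points share the same 4 gradients, so these are descriptions. Rad52, with 1260 coding bases, lay below those of the 25 members nearest in length. Mus81 (1653 bases) stood at 49.6%, Rnf168 (1701 bases) at 60.7% and Eme1 (1710 bases) at 66.4%. Rnf8 (1464 bases) and Brcc3 (873 bases), both with doubtful sites, stood at 67.2% and 61.3%. Of members with too few counts for this set, Rad51c (1152 bases) stood at 30.8 ± 14.3%, close to Rad52. Xrcc3 (1047 bases) stood at 55.7 ± 17.5% (SD). By deposited counts the share of Rad51c was 58.6 ± 6.51% and that of Rad52 40.5 ± 6.04% (SD).

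**Figure D5:**
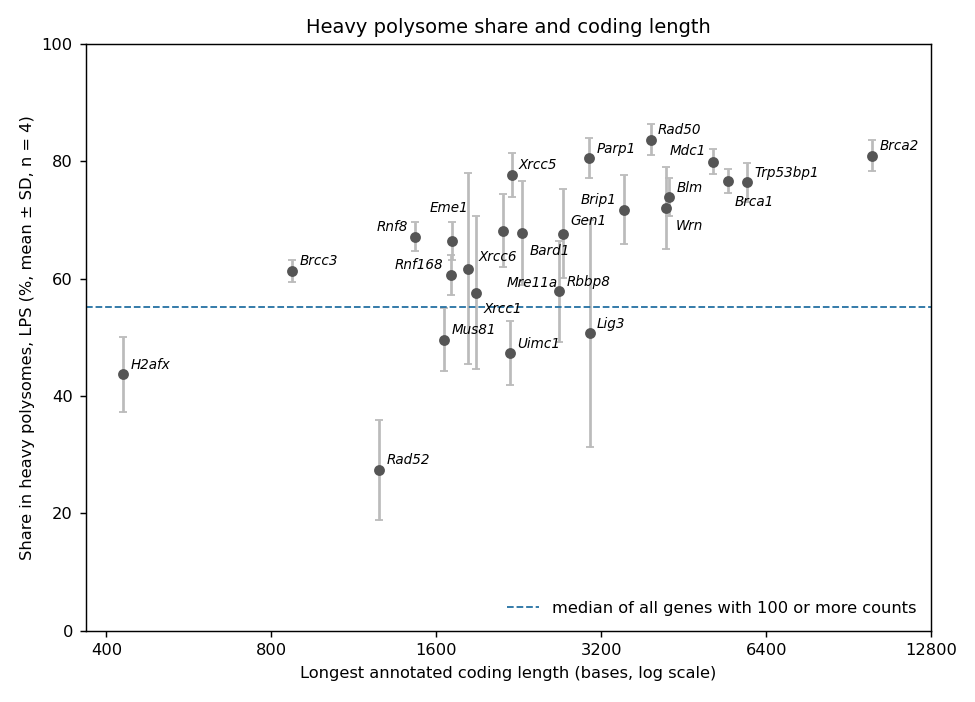
Share of each mRNA in heavy polysomes in LPS (%, mean ± SD of 4 gradients, each fraction scaled to CPM) against the longest annotated coding length (bases, log axis) for the 25 members with 100 or more mean counts. The dashed line is the gene median of 55.2%. Shares rise from 43.7% for H2afx (429 bases) to 80.9% for Brca2 (9987 bases), and Rad52 lies apart at 27.5%.

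The share of Rnf168 in heavy polysomes was 62.7, 56.8, 58.9 and 64.2% in LPS and 53.2, 40.1, 51.2 and 50.8% after etoposide. With both drugs it was 52.6, 44.3, 62.0 and 53.9%, overlapping both. For H2afx it was 45.9, 34.3, 48.5 and 46.1% in LPS and 71.9, 73.7, 59.8 and 55.7% in LPS+ET. With both drugs it was 65.7, 52.0, 53.3 and 42.8%, between those groups and overlapping both. The uncertain Rnf8 row stood at 63.5, 69.1, 68.0 and 68.0% in LPS and 70.7, 72.1, 70.6 and 73.1% in LPS+ET. How many of all genes differ as much in this share is not given. These shares are scaled, and by deposited counts the spread was wider. The deposited share of H2afx was 53.6 ± 11.1% in LPS and 64.5 ± 24.8% in LPS+ET (SD). That of Rnf168 was 67.8 ± 8.01% in LPS and 55.3 ± 22.5% in LPS+ET (SD). The change of the heavy to monosome ratio of H2afx between LPS and LPS+ET was 0.87 ± 0.29 (SE, adjusted p = 0.059), and 0.66 to 0.997 with a gradient left out, never past the threshold.

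Of 58 further genes of the same pathways, 53 were in the table and 51 were tested. After etoposide 3 of them passed the test as higher and 2 as lower than in LPS, with a median of −0.11, against 12.7% of all genes called and a median of 0.03. Rnf169, a paralogue of Rnf168 that binds the same chromatin mark, rose from 15.9 ± 1.96 to 88.2 ± 25.96 CPM (log2 fold change 2.36 ± 0.23 SE, adjusted p = 1.3e-05). Poll, a gap-filling polymerase of end joining, rose from 19.4 ± 2.17 to 45.6 ± 5.75 CPM, and Rad51d, a recombination cofactor, from 29.05 ± 5.25 to 74.1 ± 24.1 CPM. Mms22l, which acts at stalled replication forks, fell from 50.4 ± 7.48 to 26.8 ± 4.78 CPM. Prkdc, the catalytic subunit of the DNA-dependent protein kinase, fell from 14.9 ± 2.28 to 9.31 ± 1.47 CPM. With both drugs against LPS, 2 were higher (Rnf169 and Poll) and 4 lower (Mms22l, Prkdc, Rif1 and Rpa3), with a median of −0.21, against 10.7% and 0.09 for all genes. Differences between LPS+ET+KU and LPS+ET ran from −0.88 to 1.03 with a median of −0.06, none past the threshold. The heavy to monosome ratio changed for 2 of 51 between LPS and LPS+ET, Rpa2 and Setd2, against 2.51% of genes.

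Lists of cell cycle genes and p53 targets were set beside the members. In either direction, 12.7% and 10.7% of all genes tested were called in LPS+ET and LPS+ET+KU against LPS. Of 20 mRNAs of G2 and M phase, 8 were lower than in LPS after etoposide (median log2 fold change −1.03) and 16 with both drugs (−1.59). For 20 S phase mRNAs the medians were −0.22 and −0.46. Of 20 p53 targets, 19 and 16 were higher (2.62 and 2.04). H2afx was lower in LPS+ET than in LPS+ET+KU in every pool, whereas the summed G2 and M phase level was 2577 to 4393 CPM after etoposide alone and 1440 to 3530 CPM with both drugs. The part of these lists in the values of the members was not tested.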

How the data were processed

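The authors reverse transcribed equal RNA concentrations of each fraction, removed PCR duplicates by 5 random barcode bases, aligned tags to GRCm38 and assigned them to Ensembl 66.8 genes. The submitters' notes name TopHat2 2.0.12, HTSeq and DESeq2 1.6.3. The deposited table holds raw counts per gene and library. Library totals therefore do not measure the mRNA of a fraction, and sums weight fractions by depth.

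The members and lists were chosen with earlier results of these data known. Of 157 columns, 79 matched a single sample and 78 a treatment and fraction. The fraction 17 library (777 counts, 0 in members) was not used. The pairing came from the pool tag in the column names. Deviations from treatment means correlated at 0.341 to 0.821 between gradients of a pool (12 of 12 over 0.1) and at −0.646 to 0.315 between pools.

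Counts were summed per gradient or class and tested with edgeR 4.0.16 (TMM, default expression filter, quasi-likelihood F-test, two-sided) across all 12 gradients, Benjamini-Hochberg adjusted over all genes tested and called under 0.01. Heavy polysomes were compared with monosomes in 24 class sums with gradient as a block. An error is the SD over 4 gradients, or the SE of a fit where so marked. Scripts were tested on simulated data. Alternatives were the replicate block, DESeq2 1.42.0, RLE normalization, no expression filter, only the groups compared, an adjusted p under 0.05, each gradient left out, and limma 3.58.1 on log2(CPM + 0.5) with equal weight per fraction. Tests ran in R 4.3.3 and tables were made in Python 3.11.15 with pandas 2.3.3, scipy 1.17.1 and numpy 2.4.6. Sites and coding lengths came from GENCODE M21.

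Gradient values are given for members called in ribosome-associated mRNA with or without the block. Members called in a class or for the ratio are named, and the rest are given by level, counts and ranges. Partner genes are named where called.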

Additional observations from a re-analysis of the deposited data

Results flagged for a closer look

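The heavy to monosome ratio of Rnf168 differed between treatments. The change from LPS to LPS+ET was −1.58 on the log2 scale in the test of that change itself (edgeR, adjusted p = 2.3e-04), the only member called.

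Among 91 sets of 4 gradients tested for a value far from the rest (levels of all members in LPS, heavy polysome shares of the 25 members with enough counts in LPS, and both quantities in the other treatments for the 7 members whose sequences are shown), 5 passed Dixon's critical value. Chance gives about 1 in 20 independent sets, which is close to this count. These sets share gradients and genes, so the count cannot be tested against chance in this way. Of these 5, 4 lay in the LPS gradient of pool LUL18, which also holds the library of 14724 counts, the shallowest. There the heavy polysome share of Bard1 was 54.6% against 70.5 to 73.1% in the other LPS gradients. The share of Xrcc1 was 38.2% against 63.2 to 65.4%, and that of Wrn 61.6% against 74.7 to 76.8%. The level of Brca2 in that gradient was 20.3 CPM against 12.5 to 13.7 CPM. In the LPS gradient of pool LUL17 the share of Uimc1 was 55.4% against 43.9 to 44.97%. The part of library depth in these values was not tested.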

How the results depend on the processing

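With the replicate block, members called changed in LPS+ET+KU against LPS to 6 (ribosome-associated mRNA), 5 (monosomes), 1 (light polysomes) and 4 (heavy polysomes). They changed in LPS+ET+KU against LPS+ET to 1, 2 and 1 for ribosome-associated mRNA, monosomes and light polysomes, and in the profile model to 6, 8 and 2. In LPS+ET against LPS it also added Mre11a in total and Rnf8 in monosomes, and it changed no other count of members by over 1.5 times. Genes called in total rose from 1618, 1361 and 58 to 3403, 3589 and 811 in the comparisons in the order of the report. In monosomes they rose from 850, 532 and 19 to 2195, 2068 and 502, in light polysomes from 1055, 707 and 29 to 2482, 2389 and 531, in heavy polysomes from 1101, 904 and 65 to 2338, 2433 and 372, and in the last profile comparison from 839 to 1919. With no replicate block (gradient), heavy polysomes against monosomes gave 7, 9 and 6 members in LPS, LPS+ET and LPS+ET+KU (3491, 3734 and 3716 genes in place of 5290, 5279 and 5815) and the ratio change in LPS+ET 4 genes. DESeq2 gave 5, 3 and 1 members in LPS+ET+KU against LPS (in total, monosomes, light polysomes) and 1 in monosomes for LPS+ET+KU against LPS+ET, with 2263 and 412 genes in total. By class DESeq2 called 911 and 109 genes in monosomes, 1199 and 204 in light polysomes and 1645 and 279 in heavy polysomes for these comparisons, and 1761 in heavy polysomes for LPS+ET against LPS. At an adjusted p under 0.05 there were 6, 4, 1 and 2 members in LPS+ET+KU against LPS (in total and by class) and 25 for heavy polysomes against monosomes in LPS. Without the expression filter 2 were called in monosomes, LPS+ET+KU against LPS. The interaction alone gave 1, 0 and 0 members in the profile model (142, 339 and 110 genes against 3208, 3373 and 839). With a term per gradient as well it gave 1 and 0 members in the comparisons with LPS+ET+KU (593, 1132 and 380 genes in all 3). Equal weight per fraction gave 0 members for the ratio change (81 genes against 288), and 677 genes higher and 232 lower in LPS+ET+KU against LPS in place of 797 and 564. In LPS+ET against LPS these were 798 and 315 in place of 1005 and 613, and between LPS+ET+KU and LPS+ET 21 genes in place of 58. It turned the sign of Rnf168 (0.12) and Blm (0.019) in LPS+ET against LPS, Parp1 (0.19) in LPS+ET+KU against LPS+ET, Rnf168 (0.36) in the LPS+ET ratio, and Uimc1 (0.021), Dclre1c (0.26) and Lig3 (−0.093) in the LPS ratio. Leaving out each gradient gave 10 to 20, 9 to 18 and 10 to 17 members for heavy polysomes against monosomes in LPS, LPS+ET and LPS+ET+KU. It gave 1 to 2 in heavy polysomes for LPS+ET, 0 to 2 in monosomes and heavy polysomes for LPS+ET+KU (each against LPS), and 3 to 6, 2 to 7 and 0 to 1 in the profile model. The cause was not tested. In total ribosome-associated mRNA, H2afx and Rad52 were called in LPS+ET against LPS under every alternative run. Depth limits the rarer members, with 13 of 38 under 100 mean counts per gradient.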
